A study of Canis lupus familiaris with 10 samples.

Results

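The DNA replication machinery was followed in the dog kidney epithelial line MDCK as 39 genes that encode the proteins that license origins, open the helix, copy it, load the sliding clamp, join the fragments and supply deoxynucleotides. The genes were picked by name as known parts of the replication machinery, without a cut on their signals but with earlier results of these data known. They are not all of its parts, and 32 other replisome genes are described further on. Of the 39, 37 had a probe set of their own on the array, among 15947 genes with one, and all 37 passed the filter on low signals that left 10498 genes. POLD1 shared its probe set with another gene and FEN1 was named by none, so neither was measured here.

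Transcripts were profiled on 10 Affymetrix canine gene arrays, 1 for each of 5 culture steps in a Mock line and in a line that overexpresses human BLT2, a receptor for the lipid 12-HHT. At 0 h cells were in DMEM, a medium with calcium, with 10% FCS. They were then held for 2 h or 18 h in SMEM, a medium without calcium, and after the 18 h were returned to high-calcium DMEM for 2 h, alone or with 200 nM 12-HHT. Both lines are MDCK cells, and the labels give no more on the Mock line than its name. Each RNA was mixed from 3 preparations before hybridization, so there was 1 array per line and step and no replicate of any condition. The medium itself and the time in culture changed with calcium, and these cannot be told apart. No array was from cells kept in DMEM for the same 2 h or 18 h. The labels do not say whether either line is 1 clone, nor whether SMEM or the return medium held serum.

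Before S phase, the origin recognition complex (ORC), CDC6 and CDT1 load the ring of MCM2 to MCM7 onto DNA. CDC45 and the GINS complex turn that ring into a running helicase, after which the polymerases copy both strands behind it with the clamp PCNA, the clamp loader RFC and the single-strand binding protein RPA. Most of these genes are transcribed under E2F factors as cells enter S phase, and their messages fall when epithelial cells stop cycling. In these bulk samples, fewer cycling cells and less RNA per cell cannot be told apart.

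Values are log2 signals on the scale the authors deposited, so a difference of 1 is a doubling. Changes are fitted differences ± SE from a limma model with step and line, fitted to all 10 arrays and all 10498 genes. A gene is called higher or lower where its p, adjusted by Benjamini-Hochberg over those genes, is under 0.05. The SE comes from how far both lines depart from a common course, because no condition has a repeat array. Where signals are listed, the order is 0 h, 2 h without calcium, 18 h without calcium, return, and return with 12-HHT.

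The median signal of the 10498 genes lay between 9.03 and 9.19 on the arrays. The BLT2 array at 2 h had both the lowest median and the lowest mean correlation with the other arrays, 0.945 against 0.947 to 0.960. Of 11 kidney epithelial markers 10 passed the filter, led by the keratin KRT18 at a mean of 12.7, with the cadherin CDH16 below it at 6.97. Of the markers of other cells, 1 of 8 for fibroblasts, 1 of 6 for endothelium and 2 of 6 for leukocytes passed. The summed log2 signal of the fibroblast list was 50.5 to 50.8 at 0 h and 50.7 to 51.2 at 18 h.

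**Figure D1:**
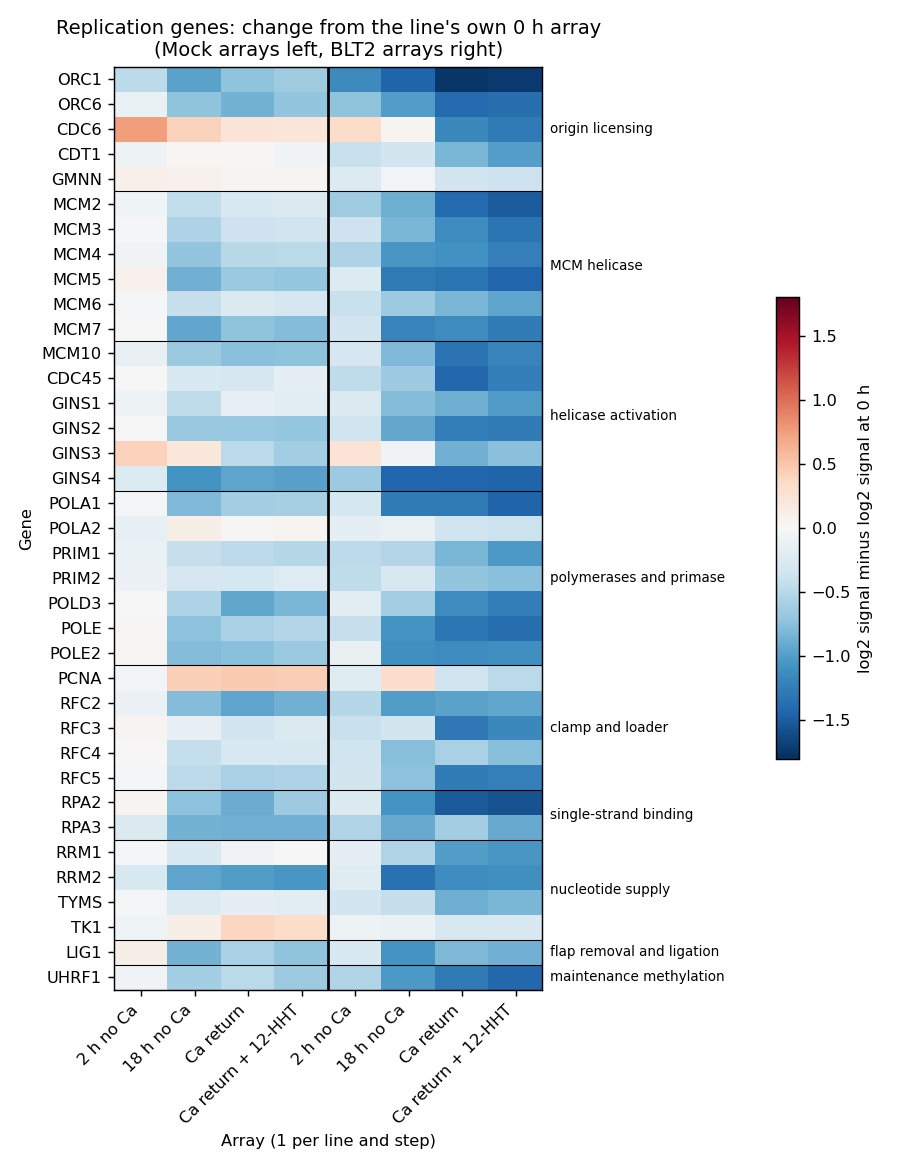
Change in log2 signal of the 37 measured replication genes from the 0 h array of the same line, with genes in rows grouped by complex and the 4 later steps of each line in columns. The median change in Mock cells was -0.02, -0.56, -0.49 and -0.53 along the steps, and in BLT2 cells -0.35, -0.80, -1.13 and -1.16.

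The comparison of 18 h without calcium with 0 h asks how the replication genes changed over that step in both lines, with medium and time changing too. Of the 37 genes 22 fell and none rose, where 12.2% of all genes tested fell and 15% rose. The median change of the 37 was -0.66, against 0.02 over all genes tested, and 30 of the 37 were lower in both lines. Every complex had members that fell, with the helicase loader ORC1, the GINS subunit GINS4, the MCM subunits MCM5 and MCM7 and the small subunit of ribonucleotide reductase, RRM2, among the largest changes. PCNA, CDC6, GMNN and GINS3 were not called and had fitted changes above 0.

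Of the 5 licensing genes 2 fell. ORC1, the largest ORC subunit (probe set 14294361), read 9.63, 9.16, 8.67, 8.91 and 8.99 in Mock cells and 9.69, 8.54, 8.26, 7.95 and 7.97 in BLT2 cells. Both lines started level, and the BLT2 line was lower at every later step. The change at 18 h was -1.20 ± 0.24 (limma adjusted p = 0.0125), or 0.436 of the 0 h signal. ORC6, a small ORC subunit, fell by 0.86 ± 0.17 on the log2 scale. CDT1, which brings the MCM ring to origins, and its inhibitor GMNN (geminin) had fitted changes of -0.15 ± 0.22 and 0.01 ± 0.13.

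Of the 6 MCM subunits 4 fell in the model with step and line, where MCM2 (-0.66 ± 0.28) and MCM3 (-0.69 ± 0.22) were not called. MCM7 (probe set 14420157) read 10.52, 10.53, 9.58, 9.79 and 9.74 in Mock cells and 10.51, 10.16, 9.31, 9.37 and 9.25 in BLT2 cells. MCM5 (probe set 14271891) read 10.34, 10.42, 9.48, 9.68 and 9.65 in Mock cells and 10.16, 9.92, 8.88, 8.85 and 8.73 in BLT2 cells. For both subunits the 18 h and return arrays of a line lay below its 0 h and 2 h arrays. How many of all genes separate in this way was not counted. The change at 18 h was -1.07 ± 0.13 for MCM7 (limma adjusted p = 0.00244) and -1.07 ± 0.17 for MCM5 (adjusted p = 0.00573). MCM4 and MCM6 fell by 0.88 and 0.54.

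Of the 6 genes that start the helicase 3 fell: GINS4, GINS2 and MCM10. GINS4 (probe set 14302408) read 10.82, 10.57, 9.75, 9.87 and 9.84 in Mock cells and 10.82, 10.16, 9.39, 9.39 and 9.37 in BLT2 cells. It had the largest fitted change of the 37 genes, -1.25 ± 0.13 (limma adjusted p = 0.00214), or 0.421 of the 0 h signal. GINS2 fell by 0.80 and MCM10, which helps the helicase to start, by 0.73. The 4 GINS subunits form 1 complex, yet their fitted changes ran from -1.25 for GINS4 to 0.06 ± 0.11 for GINS3. GINS1 changed by -0.62 ± 0.20, not called in the model with step and line.

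Of the 7 polymerase and primase genes 5 fell. POLA1, the catalytic subunit of polymerase alpha (probe set 14457745), read 10.73, 10.69, 9.93, 10.11 and 10.13 in Mock cells and 10.76, 10.45, 9.50, 9.48 and 9.32 in BLT2 cells. POLE, the catalytic subunit of the leading-strand polymerase (probe set 14357173), read 9.87, 9.90, 9.13, 9.28 and 9.34 in Mock cells and 9.85, 9.43, 8.77, 8.55 and 8.48 in BLT2 cells. Its partner subunit POLE2 (probe set 14441152) read 11.06, 11.08, 10.28, 10.31 and 10.39 in Mock cells and 10.94, 10.81, 9.84, 9.81 and 9.84 in BLT2 cells. In each of these 3 genes the Mock signal at 2 h was within 0.04 of that at 0 h and the fall came by 18 h. The changes were -1.03 ± 0.19, -0.90 ± 0.19 and -0.94 ± 0.13 (limma adjusted p = 0.00866, 0.0134 and 0.00317). POLA2, the regulatory subunit of polymerase alpha, had a fitted change of -0.01 ± 0.14, apart from that of its catalytic partner.

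Of the clamp and its loader RFC2, RFC4 and RFC5 fell, 3 of 5. RFC2 (probe set 14419645) read 9.83, 9.72, 9.05, 8.88 and 8.97 in Mock cells and 9.74, 9.22, 8.72, 8.77 and 8.80 in BLT2 cells. Its change was -0.90 ± 0.12 (limma adjusted p = 0.00337). The clamp itself, PCNA (probe set 14347884, singled out after its values were seen), read 10.55, 10.50, 10.98, 11.02 and 10.99 in Mock cells and 10.40, 10.19, 10.72, 10.05 and 9.92 in BLT2 cells. PCNA was higher at 18 h than at 0 h in both lines, by 0.43 and 0.31, and the fitted 0.37 ± 0.24 was not called.

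Both measured RPA subunits fell. RPA2 (probe set 14321986) read 9.79, 9.84, 9.06, 8.89 and 9.13 in Mock cells and 9.74, 9.48, 8.66, 8.22 and 8.17 in BLT2 cells. RPA3 (probe set 14276477) read 11.70, 11.44, 10.84, 10.84 and 10.84 in Mock cells and 11.32, 10.77, 10.40, 10.69 and 10.41 in BLT2 cells. The changes were -0.91 ± 0.20 and -0.89 ± 0.13 (limma adjusted p = 0.0152 and 0.00388).

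Of the 4 genes of nucleotide supply RRM2 alone was called in the model with step and line. RRM2 (probe set 14303630) read 12.06, 11.78, 11.12, 11.05 and 11.02 in Mock cells and 12.14, 11.92, 10.81, 11.02 and 11.04 in BLT2 cells, a fall at 18 h in both lines, with BLT2 minus Mock between -0.31 and 0.14 at the 5 steps. Its change was -1.14 ± 0.12 (limma adjusted p = 0.00216). RRM1, the large subunit of the same reductase, changed by -0.41 ± 0.26, the thymidylate synthase TYMS by -0.34 ± 0.18 and the thymidine kinase TK1 by -0.01 ± 0.19, none of them called. The ligase that seals Okazaki fragments, LIG1 (probe set 14259134), read 9.21, 9.31, 8.35, 8.62 and 8.48 in Mock cells and 9.24, 8.96, 8.17, 8.43 and 8.37 in BLT2 cells. LIG1 changed by -0.96 ± 0.11 (limma adjusted p = 0.00223), and UHRF1, which guides the copying of DNA methylation behind the fork, fell by 0.83 ± 0.19.

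Leaving out the Mock 18 h array lowered the count from 22 to 8. Leaving out that of BLT2 cells at 0 h gave 8, and leaving out that of BLT2 cells at 18 h gave 7. The share of all genes called lower went from 12.2% to 4.46%, 3.61% and 2.19% in the same fits. The 7 genes called whichever of the 10 arrays was left out were GINS4, LIG1, MCM7, POLE2, RFC2, RPA3 and RRM2.

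**Figure D2:**
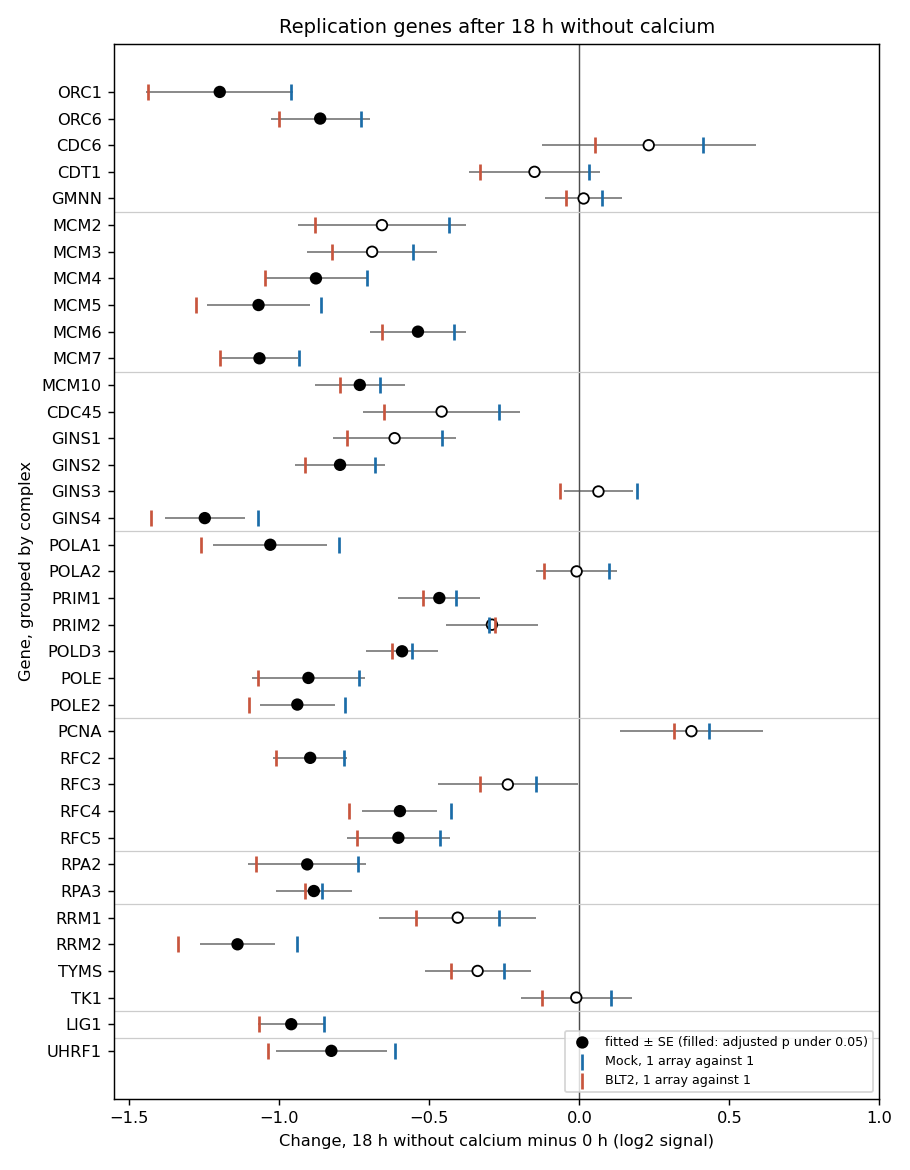
Change from 0 h to 18 h without calcium for the 37 genes (log2 signal): circles are fitted differences with SE, filled where the adjusted p is under 0.05, and ticks are the single-array differences within the Mock and the BLT2 line. The Mock tick lies to the right of the BLT2 tick for 36 of the 37 genes, and PCNA and CDC6 lie above 0 in both lines.

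At 2 h none of the 37 genes was called against 0 h by limma, 6 had an unadjusted p under 0.05, and 1.98% of all genes tested fell and 2.64% rose. The fitted median was -0.18, with a Mock median of -0.02 and a BLT2 median of -0.35 over the 37 genes. Over all genes tested the BLT2 median was -0.06. The BLT2 values rest on the 2 h array with the lowest median signal and, by a small margin, the lowest mean correlation. The fitted changes furthest from 0 were -0.81 ± 0.24 for ORC1 and 0.54 ± 0.36 for CDC6. With a line by return term, added after the data were seen, ORC1, GINS4 and RPA3 were called lower and CDC6 higher at 2 h, 4 of 37 genes where 16.8% of all genes were called. From 2 h to 18 h, 15 of the 37 fell and none rose, where 8.33% of all genes fell and 14.3% rose, with MCM5 (-0.99 ± 0.17), MCM7 (-0.90 ± 0.13) and RRM2 (-0.89 ± 0.12) furthest. That count of 15 dropped to 0 without the BLT2 18 h array, to 4 without the Mock 18 h array and to 7 without either 2 h array. The share of all genes called lower was then 0.162% and 2.70% for the 18 h arrays. It was 4.63% and 4.37% without the Mock and the BLT2 2 h array.

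CDC6 took another course than ORC1. CDC6 (probe set 14451445) read 11.21, 11.97, 11.62, 11.44 and 11.44 in Mock cells and 11.05, 11.38, 11.10, 9.89 and 9.78 in BLT2 cells. It was at its highest at 2 h without calcium in both lines and, in BLT2 cells alone, dropped below its 0 h signal on both return arrays. Its fitted change at 18 h, 0.23 ± 0.36, was not called.

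The comparison of the lines asks whether the BLT2 line differs from the Mock line in these genes. With a single line of each kind, the 5 steps serve as the repeats. The p-value therefore measures how steady the gap is over the steps. BLT2 and any other difference between the lines cannot be told apart. Across all steps 24 of the 37 genes were lower in BLT2 cells and none was higher, where 8.13% of all genes tested were lower and 7.82% higher. All 37 fitted differences were below 0, with a median of -0.42. The gap was smallest at 0 h and largest on the return arrays. The median BLT2 minus Mock signal of the 37 genes was -0.03 at 0 h, -0.38 at 2 h, -0.31 at 18 h, -0.65 on return and -0.72 on return with 12-HHT, while the median over all genes tested lay between -0.07 and 0.01.

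At 0 h 26 of the 37 genes were lower in BLT2 cells, or 20 after quantile normalization, where 48.9% of all genes were lower. On return all 37 were lower under both, where 48.5% of all genes were lower as deposited. PRIM1, the catalytic subunit of primase (probe set 14270216), was lower at each step, with 10.67, 10.55, 10.26, 10.20 and 10.16 in Mock cells against 10.19, 9.72, 9.67, 9.37 and 9.16 in BLT2 cells. The fitted line differences were -0.74 ± 0.09 for PRIM1 (limma adjusted p = 0.00324), -0.89 ± 0.23 for CDC6 (0.0376), -0.68 ± 0.17 for RRM1 (0.0347) and -0.66 ± 0.18 for MCM2 (0.0447). PRIM1 is the member with the widest gap at 0 h, -0.48, whereas CDC6, RRM1 and MCM2 differed by -0.16, -0.19 and 0.01 there. PRIM1 and MCM5 (-0.61 ± 0.11) were the 2 genes called whichever array was left out.

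The count of 24 was between 2 and 4 without any 1 of the 8 arrays taken after 0 h, and 27 without the Mock 0 h array. The share of all genes called lower in BLT2 cells, 8.13% as reported, was then between 2.41% and 4.36%, and 5.63%. The count was 14 after quantile normalization, where 7.497% of all genes were called lower. That normalization also moved the median gap at 2 h from -0.38 to -0.26. The order of the 2 h and 18 h gaps therefore depends on the normalization.

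**Figure D3:**
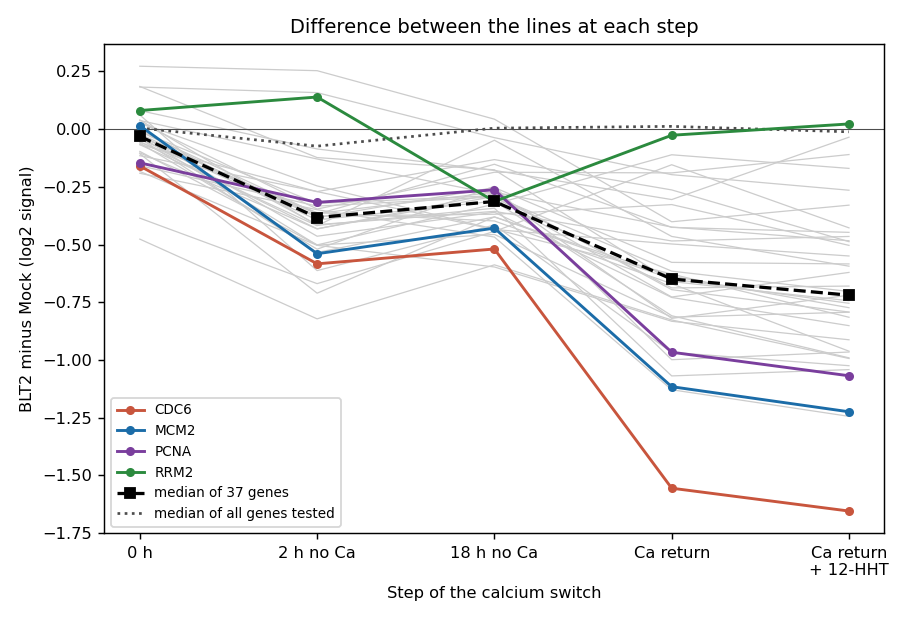
BLT2 minus Mock log2 signal of each of the 37 genes at the 5 steps, 1 array against 1 array, with the median marked. The median goes from -0.03 at 0 h to -0.65 on return and -0.72 on return with 12-HHT.

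The change of the line difference on return was tested as its own term, the line difference on the 4 return arrays minus that on the 6 earlier ones. The BLT2 minus Mock difference was lower on return for 11 of the 37 genes and higher for none, where 2.84% of all genes tested had a lower term and 8.5% a higher one. The 11 were CDC6, MCM2, MCM3, RRM1, CDC45, PCNA, RFC3, CDT1, GINS1, TK1 and TYMS. The largest terms were CDC6 at -1.18 ± 0.15 (limma adjusted p = 0.00828), MCM2 at -0.85 ± 0.17 (0.0274), RRM1 at -0.85 ± 0.12 (0.0105) and CDC45 at -0.82 ± 0.15 (0.0217).

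MCM2 (probe set 14327242) read 10.30, 10.22, 9.86, 10.03 and 10.04 in Mock cells and 10.32, 9.68, 9.44, 8.91 and 8.81 in BLT2 cells. RRM1 (probe set 14338348) read 11.17, 11.16, 10.91, 11.11 and 11.18 in Mock cells and 10.98, 10.81, 10.44, 9.98 and 9.94 in BLT2 cells. In both genes the Mock return arrays read higher than the Mock 18 h array and the BLT2 return arrays read lower than the BLT2 18 h array. RRM1 and RRM2 encode the 2 subunits of 1 enzyme, and the term was 0.03 ± 0.15 for RRM2 against -0.85 ± 0.12 for RRM1. LIG1, RFC2 and RPA3, with terms of 0.02 ± 0.13, 0.17 ± 0.14 and 0.21 ± 0.14, were not called.

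All 11 of these genes are among the 15 not called at 18 h against 0 h. The split is partly built into the test, because in the model with step and line alone a gene whose lines part on return has a larger SE at every step. With the line by return term in the model, 29 genes were called at 18 h against 0 h, 7 of the 15 among them, where 20.3% of all genes were then called lower and 22.3% higher. PCNA was then called higher (0.37 ± 0.08, limma adjusted p = 0.0104). MCM2, MCM3, GINS1, CDC45, RRM1 and TYMS were then called lower, with limma adjusted p between 0.00243 and 0.0282. The count of 11 was 0 without any 1 of the 4 return arrays, 1 without either 0 h array and 19 without either 2 h array.

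Return to calcium was then compared with 18 h within each line, a comparison also added after the data were seen, from the model with the line by return term. In that model the line difference is shared over the 6 earlier arrays, so the fitted values also draw on the other line and are not the plain differences between a line's own arrays. In BLT2 cells 18 of the 37 genes fell further and none rose, where 12.9% of all genes tested fell and 16.8% rose. In Mock cells GINS3 alone fell, where 4.55% of all genes fell and 1.3% rose. The median fitted change of the 37 was -0.35 in BLT2 cells and 0.07 in Mock cells.

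In BLT2 cells CDC6 changed by -1.32 ± 0.12 (limma adjusted p = 0.00121), a fitted ratio of 0.401, against -0.13 ± 0.12 in Mock cells. The mean of its 2 return arrays minus its 18 h array was -1.27 in BLT2 cells and -0.18 in Mock cells. PCNA changed by -0.74 ± 0.09 in BLT2 cells (adjusted p = 0.00207) and by 0.03 ± 0.09 in Mock cells. RFC3, a clamp loader subunit, changed by -0.87 ± 0.12 in BLT2 cells and by -0.17 ± 0.12 in Mock cells. CDC45, CDT1 and MCM2 fell in BLT2 cells by 0.73, 0.65 and 0.63.

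GINS3 (probe set 14325046, singled out after its values were seen) read 9.69, 10.11, 9.89, 9.22 and 9.06 in Mock cells and 9.77, 10.02, 9.71, 8.91 and 9.03 in BLT2 cells. It fell on return in both lines, by a fitted 0.69 ± 0.11 in Mock cells and 0.80 ± 0.11 in BLT2 cells and by 0.75 and 0.74 between the arrays themselves, after a fitted change of 0.06 ± 0.11 from 0 h to 18 h. In the model with step and line it was the 1 of the 37 genes called for return against 18 h (-0.73 ± 0.11, limma adjusted p = 0.0209), where 2.57% of all genes fell and 0.772% rose. In Mock cells the genes furthest above 0 were GINS1 (0.37 ± 0.10), ORC1 (0.33 ± 0.16), TK1 (0.32 ± 0.10) and RRM1 (0.30 ± 0.10), none of them called. Against 0 h, return left 21 of the 37 genes lower and none higher, where 7.29% of all genes were lower and 7.75% higher.

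CDC6, PCNA, RFC3 and GINS3 were called in BLT2 cells whichever array was left out. The count of 18 was 10, 7, 5 and 4 without the Mock 18 h, BLT2 18 h, BLT2 return and BLT2 return with 12-HHT array. The share of all genes called lower in BLT2 cells was then 10.3%, 3.66%, 4.55% and 2.31%. The call of GINS3 in Mock cells was lost when that line's 18 h array or either of its return arrays was left out. The 21 genes lower than at 0 h were 11 without the BLT2 return array and 1 without the BLT2 0 h array. The share of all genes called lower than at 0 h went from 7.29% to 3.46% and 0.152% in the same fits. GINS3 in the model with step and line was lost when the 18 h array or the return array without 12-HHT of either line was left out.

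**Figure D4:**
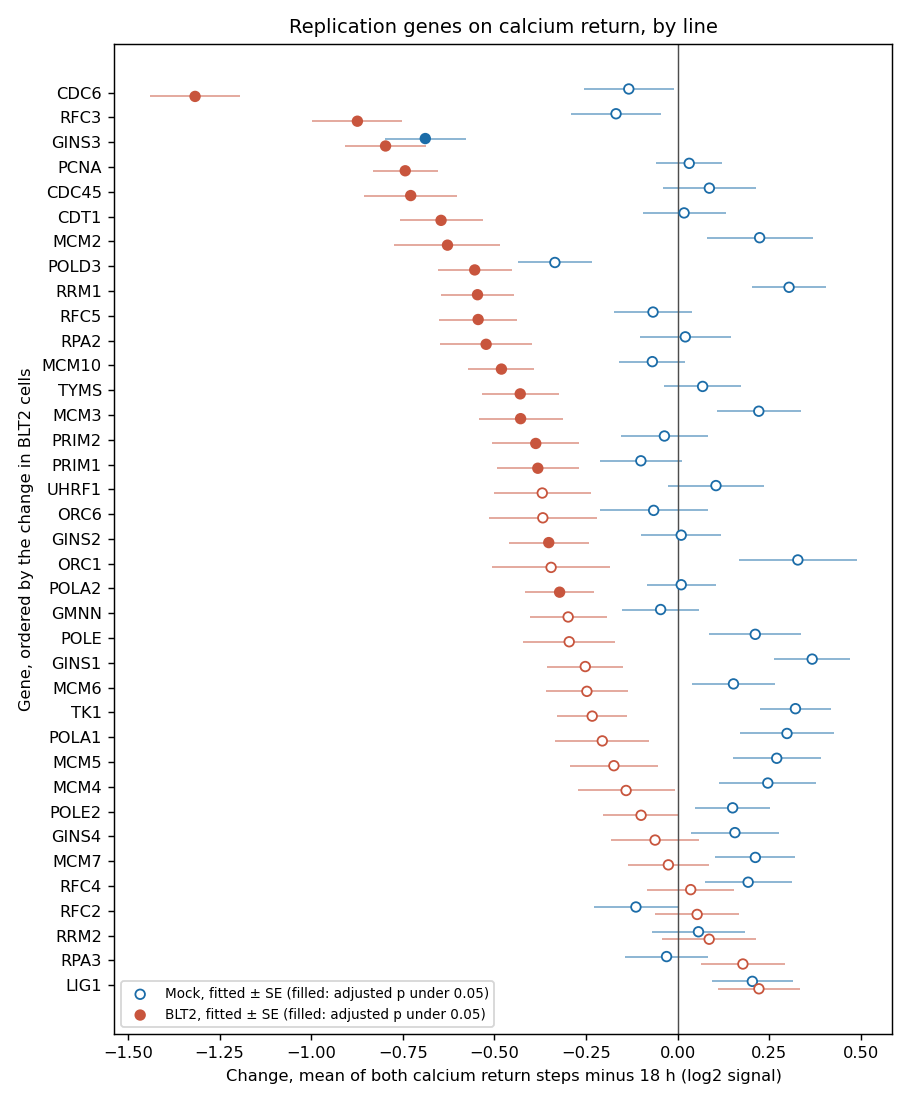
Fitted change on return to calcium, against 18 h without calcium, for the 37 genes in each line (log2 signal, with SE, filled where the adjusted p is under 0.05). In BLT2 cells 18 genes are called lower, from CDC6 at -1.32, and in Mock cells GINS3 at -0.69 is the 1 called.

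The lipid 12-HHT, which BLT2 binds, was added on return to 1 array in each line. No member was called by limma against return alone, 0 had an unadjusted p under 0.05, and 0% of all genes tested were called. Within a line, no member passed a difference of 0.58 between the 2 return arrays, where 0.0393% of genes were lower and 0.0687% higher in Mock cells, and 0.11% lower and 0.38% higher in BLT2 cells. The members ranged from -0.17 to 0.24 in Mock cells (37 genes, median 0.00) and from -0.27 to 0.17 in BLT2 cells (36 genes above the level, median -0.06). Each of these is 1 array against 1, which gives no spread. The 0.58 is a chosen cut-off and not a limit of detection, so a smaller response cannot be told from none here.

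Genes that work beside these 37 were described from 4 further lists. Of 32 other replisome genes 10 fell and 1 rose at 18 h against 0 h, where 12.2% of all genes tested fell and 15% rose, the shares against which the other 3 lists are read too. The nuclease-helicase DNA2 (-1.11 ± 0.15, limma adjusted p = 0.00317), the polymerase delta subunit POLD2 (-0.91 ± 0.11), the checkpoint mediator CLSPN (-0.82 ± 0.22) and the clamp loader subunit CHTF18 (-0.81 ± 0.09) fell furthest. Of 16 other nucleotide supply genes 6 fell and 1 rose. The folate enzyme MTHFD2 rose by 1.08 ± 0.23, while the deoxycytidine kinase DCK (-0.86 ± 0.22), the purine enzyme ATIC (-0.83 ± 0.14) and the folate enzyme MTHFD1 (-0.68 ± 0.11) fell.

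Of 20 genes that control S phase 6 fell and 1 rose. The rise was that of CDKN1A (p21), the cyclin-dependent kinase inhibitor that also binds PCNA, by 2.29 ± 0.37 (limma adjusted p = 0.00564). The phosphatase CDC25A (-1.24 ± 0.18) and the transcription factors E2F1 (-0.82 ± 0.20) and E2F7 (-0.66 ± 0.20) fell. At 2 h CDC25A had changed by -1.71 ± 0.18, while none of the 37 replication genes was called. Of 9 genes of chromatin assembly 4 fell and none rose, with the remodeller HELLS (-1.27 ± 0.17) and the histone chaperones ASF1B (-0.69 ± 0.21) and NASP (-0.46 ± 0.09) among them.

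In these 4 lists DNA2, POLD2, CHTF18, CDC25A and HELLS stayed called at 18 h whichever array was left out. CDKN1A lost its call without the BLT2 18 h array (limma adjusted p = 0.0582), ATIC and MTHFD1 without that array or that of BLT2 cells at 0 h, and the others named above without that array or several others. At 2 h CDC25A lost its call without the BLT2 0 h array (limma adjusted p = 0.0565).

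On return more genes of these lists were called in BLT2 cells than in Mock cells, and the difference in counts was not tested. Of the 20 S phase control genes 9 fell and 1 rose in BLT2 cells against 2 and 0 in Mock cells, and of the 32 other replisome genes 7 fell and 2 rose against 1 and 0. Over all genes tested 12.9% fell and 16.8% rose in BLT2 cells, against 4.55% and 1.3% in Mock cells, so more was called in BLT2 cells throughout. FBXO5, an inhibitor of the ubiquitin ligase that clears geminin, changed by -1.84 ± 0.11 in BLT2 cells and by -1.42 ± 0.11 in Mock cells, a fall in both. The origin subunit ORC5 likewise fell in both, by 0.93 ± 0.11 and 0.78 ± 0.11. The kinase WEE1, which restrains cyclin-dependent kinases, rose in BLT2 cells by 1.03 ± 0.09.

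The term for the change of the line difference on return was called for ATAD5, which unloads PCNA (-0.90 ± 0.15), for CDKN1A (-1.14 ± 0.22) and for WEE1 (0.69 ± 0.11), and not called for FBXO5 or ORC5. Those 3 terms were not called without either 0 h array or any 1 of the 4 return arrays. FBXO5, ORC5 and WEE1 stayed called in BLT2 cells whichever array was left out, and in Mock cells FBXO5 was lost when the return array without 12-HHT was left out and ORC5 when the 18 h array or either return array was.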

How the data were processed

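The values are log2 signals per probe set, which the authors made with GCRMA in Affymetrix Expression Console, per the submitters' processing notes; the log2 scale is read from the values, as the deposited table does not state it, and versions are not given in the sources used here. GCRMA subtracts background and equalizes the arrays, so a shift shared by most genes would be removed, and it compresses low signals.

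Of 32391 probe sets, 16545 were listed with 1 gene symbol, 370 with several and 15476 with none. Each gene was read from its probe set of highest mean, among 15947 genes, and the 10498 whose signal was above 7.21, the overall median, on 2 or more arrays were kept. limma 3.58.1 in R 4.3.3 fitted step and line to the 10 arrays with 4 residual degrees of freedom, and a second model added the line difference on return, leaving 3. p-values were adjusted by Benjamini-Hochberg over the 10498 genes. With no repeat arrays, the SE takes both lines to share 1 course, so real differences between them enter it. The number of arrays limits the precision. The procedure was tested on simulated data for 18 h against 0 h. It recovered 71% of 100 genes with a planted log2 change of 1 and 95% of 100 with a change of 2. Of 10298 unchanged genes 16 were called.

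Members and lists were chosen with earlier results of these data known. Signals on every array are given for the 12 genes furthest from 0 at 18 h against 0 h and the 4 furthest between lines, and up to 4 called genes are named from each further list and comparison. PCNA and GINS3 were added after their values were seen, and so were the comparisons within lines on return. A search of promoter motifs was planned and not run, and no sequence is shown. Alternatives were other filters, normalizations and probe set rules, an intensity trend, fewer arrays and each array left out.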

Additional observations from a re-analysis of the deposited data

Results flagged for a closer look

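The effect of return to calcium differed between the Mock and BLT2 lines for 11 of the 37 genes. This is by limma's test of that difference with an adjusted p under 0.05. Over all genes tested 2.84% had a lower term and 8.5% a higher one. The terms, BLT2 minus Mock on the return arrays against the earlier arrays in log2 signal, were -1.18 for CDC6, -0.85 for MCM2, -0.85 for RRM1, -0.82 for CDC45, -0.77 for PCNA, -0.71 for RFC3, -0.66 for CDT1, -0.65 for MCM3, -0.62 for GINS1, -0.55 for TK1 and -0.50 for TYMS. None of the 11 stayed called when each of the 10 arrays was left out in turn. TK1, which was higher in BLT2 cells at 0 h, 2 h and 18 h, by 0.27, 0.25 and 0.04, was lower on both return arrays, by 0.40 and 0.33.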

How the results depend on the processing

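No paired analysis was possible because the labels carry no replicate numbers to pair by, beyond the reported model, which already compares lines within a step and steps within a line. No result changed direction under any alternative. At 2 h against 0 h, 5 of the 37 genes were called with only the 4 arrays compared and 4 with the line by return term, where 17.2% and 16.8% of all genes were called. At 18 h against 2 h that term, which removes the return difference from the error, gave 24 in place of 15. Of the 24, 23 were lower and 1 higher, where 16.1% of all genes were called lower and 23.3% higher. Return against 18 h gave 0 with only the 4 arrays compared, where 1.29% of all genes were called lower. BLT2 against Mock gave 14 in place of 24 with no filter on low signals, 14 with quantile normalization and 2 without the 12-HHT arrays. Of all genes 3.900%, 7.497% and 2.410% were then called lower, in place of 8.13%. The line difference on return gave 5 in place of 11 with no filter, 20 with quantile normalization, 19 with an intensity trend and 0 without the 12-HHT arrays. A lower term was then called for 0.834%, 5.52%, 4.65% and 0.0572% of all genes, in place of 2.84%. Return against 18 h in Mock cells gave 2 with the trend and 0 without the 12-HHT arrays, where 8.60% and 2.78% of all genes were called. In BLT2 cells it gave 9 in place of 18 without them, where 5.46% of all genes were called lower. The cause of these changes in count was not tested. Leaving out 1 array at a time gave 0 to 0 calls at 2 h against 0 h, 7 to 24 at 18 h against 0 h, 0 to 15 at 18 h against 2 h, 0 to 1 for return against 18 h, 1 to 22 for return against 0 h, 0 to 0 for 12-HHT, 2 to 27 between lines, 0 to 19 for the line difference on return, 0 to 1 for return in Mock cells and 4 to 24 in BLT2 cells. With 1 array per condition and 4 residual degrees of freedom, most calls rest on single arrays, and a missed call does not show that a gene was unchanged.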

Other observations

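Across the 37 genes, the change from 0 h to 18 h in the Mock line and that in the BLT2 line had a correlation of 0.966, a description over genes that share the same 4 arrays. Both probe sets of PRIM2 moved alike at 18 h, by -0.42 and -0.30 in Mock cells and by -0.42 and -0.28 in BLT2 cells. The 2 probe sets of TYMS gave -0.63 and -0.25 in Mock cells and -0.65 and -0.43 in BLT2 cells, so the size read for TYMS depends on the probe set.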
